A study of Mus musculus with 2 samples.

Results

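A set of 46 imprinted mouse genes was described in neural tube tissue of newborn pups. The genes were listed by symbol and matched to the deposited gene tables by gene ID without its version. Of the 46, 45 had a row among 43346 gene rows, and Peg13, a paternally expressed RNA gene that lies inside Trappc9 on the same strand, had none and is not counted below. The data are total RNA-seq of 1 group with no contrast: wild-type B6NCrl mice at postnatal day 0, 1 neural tube per pup, from pup 2 and pup 1 of 1 litter (n = 2). Sex was not collected. Levels are TPM, the deposited abundance per transcript length, scaled to a fixed total, given for pup 2 and then pup 1, or as a mean ± SD over the pups. Ratios are pup 2 over pup 1 and rest on 1 library each, so they carry no p-value.

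Imprinted genes are transcribed mainly from the copy inherited from 1 parent. Their parental marks are DNA methylation set in the egg or sperm at imprinting control regions, and each region governs a cluster of neighbouring genes, often with a long non-coding RNA among them. Paternally expressed genes tend to promote growth and maternally expressed genes tend to restrain it, and many of both kinds are active in neurons and in the placenta. An inbred strain offers no sequence differences between the parental copies, so the expressed allele named here comes from the literature and was not measured.

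The gene rows held 40003518 expected counts in pup 2 and 26916916 in pup 1, and a gene at 0 counts could still hold up to 3, or 0.0750 and 0.111 CPM (counts scaled to the library total). Such floors cover counting error only. Markers of neurons and of spinal levels were present: neuron markers summed to 3601 TPM in pup 2 and 4007 TPM in pup 1, and Hox genes of the spinal levels to 390 and 405 TPM. Of 5 forebrain markers, 0 reached a TPM of 1 in both pups, and no read was assigned to Otx2 or Nkx2-1 in either pup. The Hox genes did not match between the pups: Hoxc8 was 2.34-fold higher in pup 2, while Hoxd10 and Hoxc10 were lower there, with log2 ratios of -0.66 and -0.84. The libraries also differed in 3 lists whose members were all higher in pup 2. The 11 meningeal and fibroblast markers summed to 3081 TPM in pup 2 and 1661 TPM in pup 1, the 6 sensory ganglion markers to 234 and 160 TPM, and the 5 myelin markers to 667 and 371 TPM. Sums for other cell types were 1358 and 1378 TPM for astrocytes, 202 and 221 TPM for endothelium, 61.2 and 61.3 TPM for skeletal muscle, 11.6 and 14.9 TPM for cartilage and bone, 32.5 and 41.9 TPM for pericytes and smooth muscle, 2.47 and 3.66 TPM for choroid plexus, and 1289 and 1666 TPM for blood, whose 3 markers were all lower in pup 2. Less RNA of a gene in such whole tissue can mean fewer cells of a type or less RNA per cell, and these cannot be told apart.

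Most of the imprinted genes were expressed. A TPM of at least 1 in both pups was reached by 41 of 45, against 35.5% of all gene rows, and a mean TPM of at least 100 by 14 of 45, against 4.05% of all gene rows. All gene rows include pseudogenes and small RNA genes such as microRNAs, so these shares are not matched for gene type. The 45 genes together took 1.15% of all TPM in pup 2 and 1.25% in pup 1. Their levels spanned from Phlda2, at 0.345 ± 0.00707 TPM, to Nnat, at 2656 ± 161 TPM, which ranked 32 among all gene rows. Of the 44 neighbouring pairs in the order of mean TPM, 25 had pup values that did not overlap and 19 had values that did. Nnat stood above all the others in both pups, while Meg3 and Gnas, next in the order, overlapped.

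**Figure D1:**
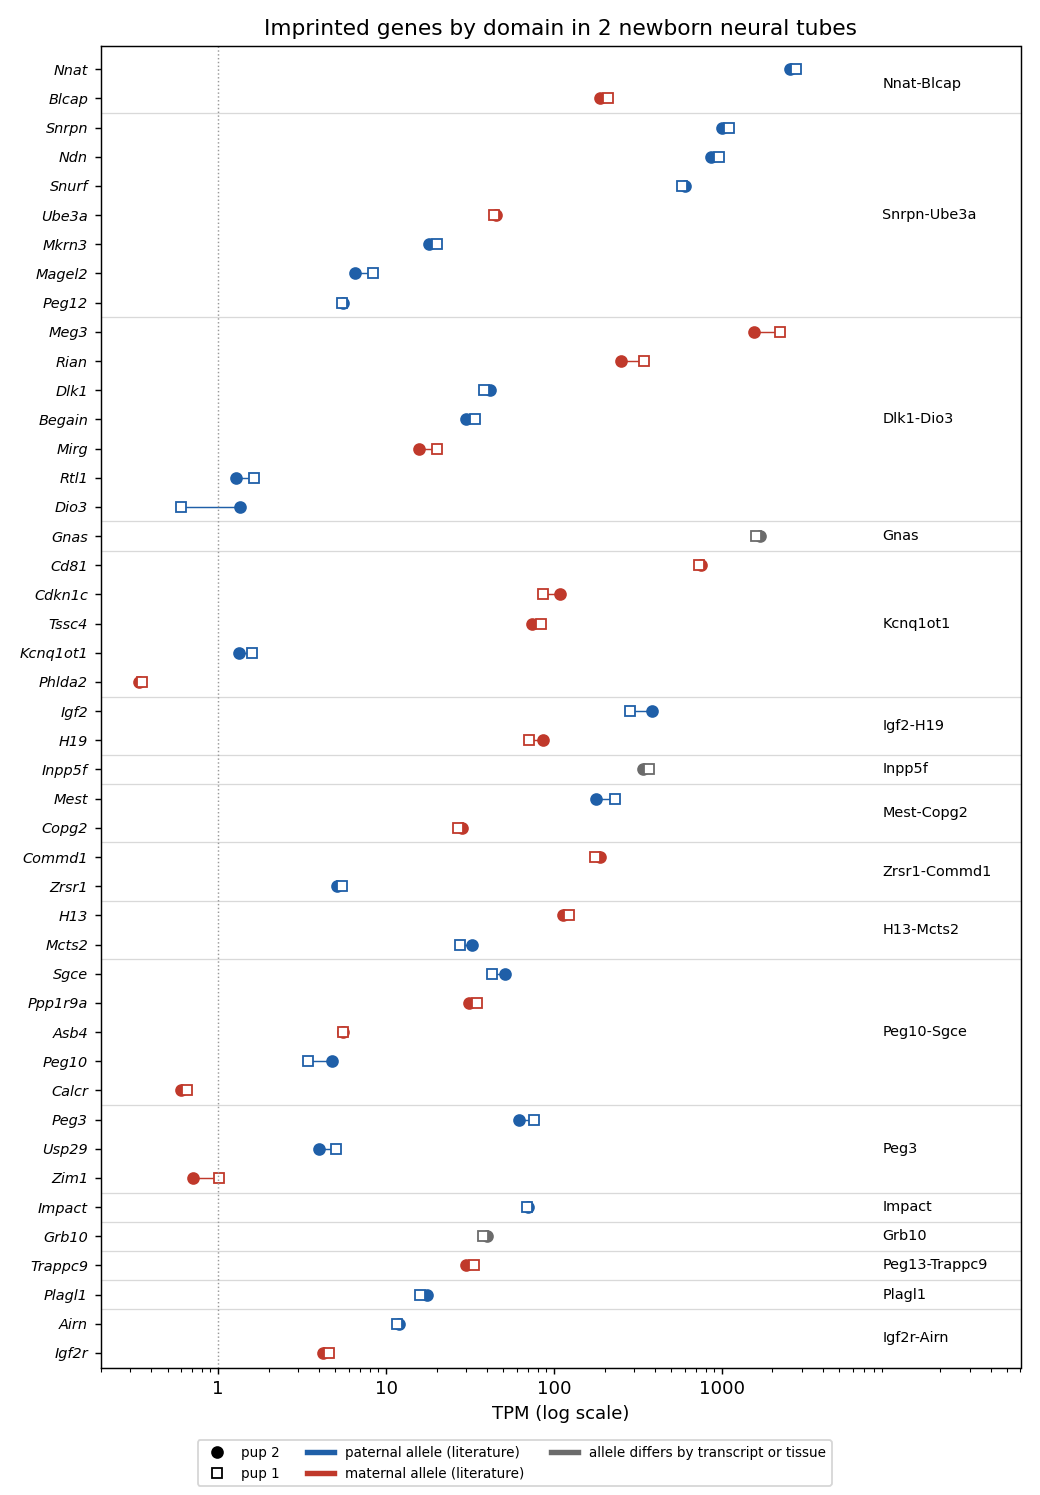
TPM on a log axis for the 45 imprinted genes with a row, grouped by imprinted domain; filled circles are pup 2, open squares pup 1, and the colour gives the allele known from the literature. Nnat, Meg3, Gnas and Snrpn lie near or above 1000 TPM, and Calcr, Dio3, Phlda2 and Zim1 fall below the dotted line at 1 TPM in at least 1 pup.

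Nnat, which encodes neuronatin, a small membrane protein of the endoplasmic reticulum in developing neurons, had 2542 TPM in pup 2 and 2770 TPM in pup 1. It is paternally expressed and lies at chr2:157560078-157562522 on the plus strand (GRCm38), inside an intron of Blcap on the opposite strand. Blcap, a gene first named in bladder cancer whose longer transcripts are maternally biased in brain, had 189 TPM in pup 2 and 210 TPM in pup 1. Nnat thus exceeded its host 13.4-fold in pup 2 and 13.2-fold in pup 1. The Nnat promoter is shown because its start sits within the host gene; the RefSeq window runs from 250 bases before the start to 50 after it (GRCm38.p6, chr2:157559828-157560127, plus strand), and capitals mark each CpG, the dinucleotide that carries DNA methylation.
Nnat promoter: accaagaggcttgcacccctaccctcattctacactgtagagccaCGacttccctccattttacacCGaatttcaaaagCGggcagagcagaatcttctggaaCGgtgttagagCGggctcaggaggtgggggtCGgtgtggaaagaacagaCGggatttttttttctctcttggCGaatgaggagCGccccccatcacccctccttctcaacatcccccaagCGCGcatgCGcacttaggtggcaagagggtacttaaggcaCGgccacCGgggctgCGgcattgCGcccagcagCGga
This window holds 17 CpGs and 1 copy of TGCCGC, the hexamer bound by the imprint-keeping factor ZFP57 when its CpG is methylated, which begins 27 bases after the start on the minus strand.

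The Snrpn-Ube3a domain of chromosome 7, whose human counterpart underlies Prader-Willi and Angelman syndromes, summed to 2624 ± 123 TPM over 7 genes. Snrpn, which encodes a splicing protein of neurons, had 995 TPM in pup 2 and 1096 TPM in pup 1. Ndn, encoding the growth-suppressing MAGE protein necdin, had 863 TPM in pup 2 and 956 TPM in pup 1. Both were a little lower in pup 2, with log2 ratios of -0.07 and -0.08. Snurf, the small upstream reading frame of the Snrpn transcript, was listed at 603 and 582 TPM, but its row is only 216 bases long. It rests on 1874 and 1174 counts that were divided from reads shared with Snrpn, which held 48625 and 34752 counts, so its TPM is uncertain.

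The other paternally expressed genes of that domain were far lower. Mkrn3, a zinc finger ubiquitin ligase known as a brake on puberty in humans, had 18.1 TPM in pup 2 and 20.2 TPM in pup 1. Magel2, a MAGE gene that acts in protein recycling from endosomes, had 6.50 TPM in pup 2 and 8.38 TPM in pup 1, and Peg12, an inhibitor of the kinase GSK3, had 5.51 and 5.50 TPM. Ndn exceeded its relative Magel2 133-fold in pup 2 and 114-fold in pup 1. Ube3a, the ubiquitin ligase expressed from the maternal copy in mature neurons, had 45.1 TPM in pup 2 and 44.2 TPM in pup 1. Its antisense partner Snhg14, the long paternal RNA that silences Ube3a on that copy in neurons, was listed at 64.9 and 99.5 TPM. The strand setting of the counting is not given in the sources used here, so reads from Ube3a and Snhg14 cannot be told apart where they overlap.

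The Dlk1-Dio3 domain of chromosome 12 was carried by its maternal non-coding RNAs. Meg3, a long non-coding RNA at chr12:109541001-109571726 on the plus strand, had 1560 TPM in pup 2 and 2217 TPM in pup 1. Rian, which hosts small nucleolar RNAs, had 249.8 TPM in pup 2 and 343 TPM in pup 1, and Mirg, which hosts microRNAs, had 15.8 and 20.0 TPM. All 3 were lower in pup 2, with log2 ratios of -0.46 for Meg3, -0.35 for Rian and -0.40 for Mirg. Their proportions stayed close between the pups: Meg3 exceeded Rian 6.24-fold in pup 2 and 6.46-fold in pup 1, and Rian exceeded Mirg 15.8-fold and 17.2-fold.

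The paternally expressed genes of the same domain differed in both directions: Dlk1 and Dio3 were higher in pup 2, and Rtl1 and Begain lower, with log2 ratios of -0.29 and -0.07. Dlk1, a membrane ligand related to Notch ligands, had 41.8 TPM in pup 2 and 38.2 TPM in pup 1, and Begain, a protein of the postsynaptic density, had 29.9 and 33.7 TPM. Rtl1, a gene derived from a retrotransposon that placental vessels need, had 1.27 TPM in pup 2 and 1.63 TPM in pup 1. Dio3, the enzyme that inactivates thyroid hormone, had 1.35 TPM in pup 2 and 0.60 TPM in pup 1, on 67 and 20 counts. Summed over the domain, the maternal RNAs reached 1825 TPM in pup 2 and 2580 TPM in pup 1, and the paternal genes 74.3 and 74.1 TPM. Meg3 was 37.3 times Dlk1 in pup 2 and 58.0 times Dlk1 in pup 1. A microRNA reference separate from the gene annotation places 14 hairpins in Mirg, 3 in Rian, 1 in Meg3 and 7 in Rtl1. Of those in Rtl1, 1 is on the Rtl1 strand. Since the use of strand in counting is not given, reads of RNA from the other strand cannot be told apart from those of Rtl1. RNA above 200 bases was kept for these libraries, so mature microRNAs were not measured.

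Gnas, at chr2:174284320-174346744 on the plus strand, had 1689 TPM in pup 2 and 1602 TPM in pup 1. One locus makes several products that differ in their first exon and in the allele used. NESP55, a secretory vesicle protein, is maternal; XL-alpha-s, a long G protein subunit, and the non-coding exon 1A RNA are paternal; and Gs-alpha, the subunit that couples receptors to cyclic AMP, is made from both copies in most tissues and from the maternal copy in a few. The annotated starts were grouped where they lay within 1000 bases of each other, and the deposited isoform percentages were summed over each group. RefSeq gives a promoter window for 3 of the start groups, and these are shown in order along the plus strand (GRCm38.p6), at chr2:174284070-174284369, chr2:174327499-174327798 and chr2:174329756-174330055, with CpGs in capitals.
Gnas promoter at the NESP55 start: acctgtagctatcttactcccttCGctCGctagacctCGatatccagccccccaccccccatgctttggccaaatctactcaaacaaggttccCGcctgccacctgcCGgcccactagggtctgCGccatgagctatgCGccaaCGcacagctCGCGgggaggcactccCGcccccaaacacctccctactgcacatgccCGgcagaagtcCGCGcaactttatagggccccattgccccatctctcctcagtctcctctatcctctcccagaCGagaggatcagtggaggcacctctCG
Gnas promoter at the exon 1A start: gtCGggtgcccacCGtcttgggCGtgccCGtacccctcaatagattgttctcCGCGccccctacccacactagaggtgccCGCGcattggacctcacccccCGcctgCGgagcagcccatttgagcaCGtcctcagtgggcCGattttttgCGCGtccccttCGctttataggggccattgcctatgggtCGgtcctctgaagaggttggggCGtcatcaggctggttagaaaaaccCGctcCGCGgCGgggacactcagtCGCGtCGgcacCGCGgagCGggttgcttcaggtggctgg
Gnas promoter at the Gs-alpha start: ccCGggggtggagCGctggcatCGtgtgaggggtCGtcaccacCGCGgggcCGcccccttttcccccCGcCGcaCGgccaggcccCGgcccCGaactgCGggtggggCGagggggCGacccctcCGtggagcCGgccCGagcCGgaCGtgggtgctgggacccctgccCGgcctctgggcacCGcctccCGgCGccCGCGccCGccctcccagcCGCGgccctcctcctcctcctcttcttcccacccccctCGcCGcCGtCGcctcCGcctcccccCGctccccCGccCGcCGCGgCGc
The windows hold 16, 27 and 40 CpGs in that order, and TGCCGC is in none of the 3.

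Gs-alpha starts gave most of Gnas. They held 87.4% of Gnas TPM in pup 2 and 88.0% in pup 1, or 1442 ± 47.6 TPM. The NESP55 start held 6.91% in pup 2 and 6.62% in pup 1, or 111 ± 7.47 TPM, more than the whole level of most of the imprinted genes. Exon 1A starts held 3.44% and 3.19%, and the XL-alpha-s start held 2.08% and 1.83%, or 32.2 ± 4.02 TPM. These 4 shares of TPM kept their order in both pups. By counts, Gs-alpha starts held 84.2% in pup 2 and 85.2% in pup 1, and the NESP55 start 8.57% and 8.22%. The XL-alpha-s start then stood above exon 1A, at 4.48% and 3.98% of counts against 2.73% and 2.51%. The single transcript that led, a coding Gs-alpha form of 1716 bases, held 80.3% in pup 2 and 81.6% in pup 1. Nespas, the antisense RNA across the NESP55 exon, was listed at 1.98 and 2.47 TPM.

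Grb10, an adaptor that dampens insulin and growth factor receptor signalling, had 39.8 TPM in pup 2 and 37.7 TPM in pup 1. It is on the minus strand at chr11:11930508-12038683. In most mouse tissues it is transcribed from the maternal copy at an upstream CpG-rich promoter, and in neurons from the paternal copy at downstream starts. The RefSeq windows of 2 starts are shown to contrast their CpG content (GRCm38.p6, minus strand), at chr11:12037371-12037670 and chr11:12027922-12028221.
Grb10 upstream promoter: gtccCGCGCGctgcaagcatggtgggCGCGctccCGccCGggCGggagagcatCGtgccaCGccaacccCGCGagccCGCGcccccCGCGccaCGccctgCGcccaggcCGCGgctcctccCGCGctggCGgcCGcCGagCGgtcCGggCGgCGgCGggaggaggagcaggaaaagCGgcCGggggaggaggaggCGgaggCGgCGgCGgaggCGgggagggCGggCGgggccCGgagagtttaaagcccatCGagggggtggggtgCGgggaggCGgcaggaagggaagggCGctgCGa
Grb10 downstream promoter: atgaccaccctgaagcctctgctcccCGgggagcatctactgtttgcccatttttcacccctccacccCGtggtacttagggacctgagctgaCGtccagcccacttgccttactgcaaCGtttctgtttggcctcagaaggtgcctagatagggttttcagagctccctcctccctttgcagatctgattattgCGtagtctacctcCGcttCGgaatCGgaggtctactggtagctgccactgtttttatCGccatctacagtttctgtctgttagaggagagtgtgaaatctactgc
The upstream window holds 45 CpGs and 1 copy of TGCCGC, and the downstream window holds 9 CpGs and no copy. RefSeq gives no window for a further downstream start group, between chr11:12026324 and chr11:12026732, so its CpG content was not compared. Which downstream start is used from the paternal copy was not tested.

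The upstream Grb10 start gave 62.8% of Grb10 TPM in pup 2 and 65.5% in pup 1. A start group 11951 bases downstream of the first annotated start, made of short transcripts, gave 30.2% in pup 2 and 21.4% in pup 1. It rested on only 158 and 82.5 counts, which were 4.20% and 3.22% of the Grb10 counts. The start whose downstream window is printed above gave 5.97% in pup 2 and 11.9% in pup 1, on 294 and 359 counts. By counts the upstream start held 87.5% in pup 2 and 82.4% in pup 1. The share of downstream Grb10 RNA therefore depends strongly on whether reads are divided by transcript length.

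**Figure D2:**
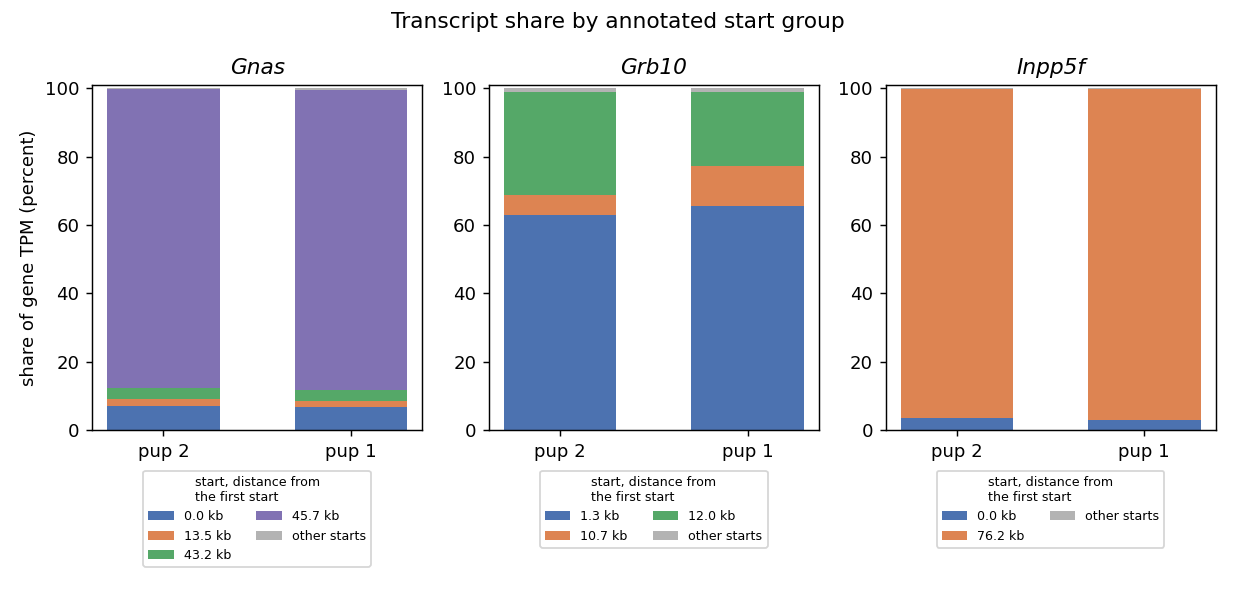
Percent of each gene's TPM by group of annotated transcript starts, for Gnas, Grb10 and Inpp5f, with pup 2 left of pup 1 in each panel; colours give the distance of a start group from the gene's first annotated start, and grey sums groups with a mean under 1%. The Gs-alpha start leads in Gnas, the upstream start in Grb10 and the far downstream start in Inpp5f.

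Inpp5f, a phosphoinositide phosphatase, had 341 TPM in pup 2 and 369 TPM in pup 1. Its full-length form is expressed from both copies, and a brain form that starts in a late intron is paternal. The most downstream start group, 76218 bases from the first start, held 96.4% of Inpp5f TPM in pup 2 and 97.0% in pup 1, or 343 ± 20.6 TPM. The upstream full-length start held 3.46% and 2.91%, or 11.3 ± 0.771 TPM. Counts, which are not divided by length, gave the downstream group 95.0% and 95.8%.

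The growth factor Igf2, paternally expressed, and the neighbouring maternal non-coding RNA H19 share enhancers on chromosome 7. Igf2 had 384 TPM in pup 2 and 282 TPM in pup 1, on 11985 and 5448 counts. H19 had 86.2 TPM in pup 2 and 70.8 TPM in pup 1. Both were higher in pup 2, with log2 ratios of 0.58 and 0.30, and Igf2 was 4.46 times H19 in pup 2 and 3.98 times in pup 1. Igf2r, the receptor that clears IGF2 by lysosomal uptake, had 4.22 TPM in pup 2 and 4.57 TPM in pup 1. Airn, the paternal antisense RNA that silences Igf2r on its copy outside neurons, was listed at 11.9 and 11.6 TPM, though on only 211 and 133 counts against 905 and 677 counts for Igf2r. Igf2r and Airn overlap on opposite strands, and their reads cannot be told apart there.

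In the Kcnq1ot1 domain, Cdkn1c, the cell cycle inhibitor p57, had 109 TPM in pup 2 and 86.0 TPM in pup 1, a log2 ratio of 0.41. Cd81, a tetraspanin whose imprinting is known mainly from placenta, had 749 and 733 TPM, and Tssc4, a splicing factor also imprinted mainly in placenta, had 74.0 and 84.2 TPM. Phlda2, a brake on placental growth, had 0.34 TPM in pup 2 and 0.35 TPM in pup 1 on 6 and 4 counts, so no ratio was computed. Kcnq1ot1, the paternal non-coding RNA that silences the domain, had 1.34 and 1.59 TPM. Its row spans 84395 bases, so this low level per length stood on 3008 and 2313 counts.

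Retrogenes that sit inside host genes give further pairs. Mcts2, a translation factor copy inside an intron of H13, is paternal and had 32.6 TPM in pup 2 and 27.4 TPM in pup 1, against 113 and 123 TPM for H13, a signal peptide peptidase. Zrsr1, a splicing factor copy inside Commd1, had 5.11 TPM in pup 2 and 5.46 TPM in pup 1, against 188 and 176 TPM for Commd1, a copper metabolism gene. In these pairs the paternal insert was lower than its host in both pups, the reverse of Nnat and Blcap. Trappc9, a vesicle tethering gene and the host of Peg13, had 30.0 TPM in pup 2 and 33.3 TPM in pup 1. Mest, a hydrolase-like protein of the mesoderm, had 179 TPM in pup 2 and 232 TPM in pup 1, and Copg2, a coat protein gene that overlaps the Mest end on the other strand, had 28.2 and 27.0 TPM. Reads of Mest and Copg2 cannot be told apart where they overlap. The Mest level is uncertain, since an 836-base transcript not placed in the later annotation held 36.7% and 42.4% of its TPM on 15.9% and 19.2% of its counts.

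Head-to-head genes with annotated gene starts less than a promoter window apart differed widely in listed level. Peg3, a zinc finger gene of maternal behaviour and growth, had 61.9 TPM in pup 2 and 75.9 TPM in pup 1. Usp29, a ubiquitin protease gene whose annotated gene start lies 147 bases away on the plus strand, had 4.00 and 5.01 TPM. All Usp29 TPM went to a transcript of 2610 bases whose start is placed at chr7:6961160, far from that gene start. Its level may therefore leave out exons near the shared promoter. Both genes are paternal, and Peg3 was 15.5 times Usp29 in pup 2 and 15.2 times in pup 1. The window that holds both annotated gene starts is shown because it spans the stretch between them (GRCm38.p6, chr7:6730333-6730632, printed for the plus strand, CpGs in capitals).
Usp29 and Peg3 shared promoter: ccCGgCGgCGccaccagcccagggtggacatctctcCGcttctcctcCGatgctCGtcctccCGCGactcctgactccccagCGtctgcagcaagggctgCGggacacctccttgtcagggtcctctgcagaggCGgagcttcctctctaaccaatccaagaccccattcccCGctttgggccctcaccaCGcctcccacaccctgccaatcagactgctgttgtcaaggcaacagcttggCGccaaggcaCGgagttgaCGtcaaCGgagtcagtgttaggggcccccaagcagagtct
It holds 17 CpGs and no TGCCGC.

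Sgce, a membrane protein of the sarcoglycan family, had 50.9 TPM in pup 2 and 42.8 TPM in pup 1, a log2 ratio of 0.35. Peg10, a retrotransposon-derived gene that starts 99 bases away, had 4.79 and 3.41 TPM, so Sgce was 10.6 and 12.5 times Peg10. Also in that domain, Ppp1r9a, the actin-binding neurabin of synapses, had 31.4 TPM in pup 2 and 34.6 TPM in pup 1, and Asb4, a ubiquitin ligase adaptor, had 5.53 and 5.54 TPM. Calcr, the calcitonin receptor, had 0.60 TPM in pup 2 and 0.65 TPM in pup 1, and Zim1, the maternal zinc finger gene beside Peg3, had 0.71 and 1.01 TPM. Impact, a regulator of translation under amino acid stress, had 70.2 TPM in pup 2 and 69.4 TPM in pup 1, and Plagl1, a zinc finger gene of growth control, had 17.4 and 16.0 TPM.

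Grouped by the allele known from the literature, 23 paternal genes with a row summed to 5932 TPM in pup 2 and 6284 TPM in pup 1, and 19 maternal genes to 3479 and 4215 TPM. Gnas, Grb10 and Inpp5f, whose allele depends on transcript or tissue, were kept apart and summed to 2069 and 2008 TPM. Paternal over maternal was 1.70 in pup 2 and 1.49 in pup 1. The mean of 1.60 depends on the non-coding RNAs: without them it was 3.89, and by counts not divided by length, with them, it was 1.18. Nnat held the largest part of the paternal sum and Meg3 of the maternal one; without both the mean ratio was 1.76. By the median gene the order was the other way, at 30.0 TPM for the paternal and 44.7 TPM for the maternal genes. For 12 of the maternal genes and 2 of the paternal ones the stated allele holds only in some tissues or transcripts, and without those the mean ratio was 2.60.

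Differences between the pups were small for most of these genes and a little wider than over all genes. At a mean count of at least 100, 0 of 41 passed 1.5-fold, against 2.01% of 13545 genes, and 0 of 41 passed 2-fold, against 0.472%; both shares are near the background, so nothing is read from them. With spike-in totals as the scale, 4 passed 1.5-fold. That scale rests on 603 spike-in counts in pup 2 and 335 in pup 1, and it shifted every gene by -0.29. No share over all genes is given on it, so nothing is read from the 4. On the scale used elsewhere, the log2 ratios of the 41 ran from -0.46 for Meg3 to 0.58 for Igf2, which lay just under 1.5-fold. With a mean count of at least 10, the median was -0.04 over 44 imprinted genes, 18 higher and 26 lower in pup 2, and 0.00 over 18105 genes. In size, the median difference was 0.15 on the log2 scale for the 41 and 0.11 for the 13545. Within 1.2-fold were 31 of 41 imprinted genes, against 85.8% of all genes. Dio3 was 2.19-fold higher in pup 2, but below the count minimum.

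Deposited TPM intervals, which express the uncertainty of the read assignment within a library, lay apart for 7 of 41 detected genes that were higher in pup 2, against 6.88% of all detected genes. These were Cd81, Cdkn1c, Gnas, H19, Igf2, Mcts2 and Sgce. For 14 of 41 they lay apart with the lower value in pup 2, against 14.1%, and these were Blcap, H13, Inpp5f, Kcnq1ot1, Magel2, Meg3, Mest, Ndn, Nnat, Peg3, Rian, Snrpn, Trappc9 and Tssc4. Such intervals narrow with counts and hold no spread between animals, so deeply counted genes separate more readily.

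**Figure D3:**
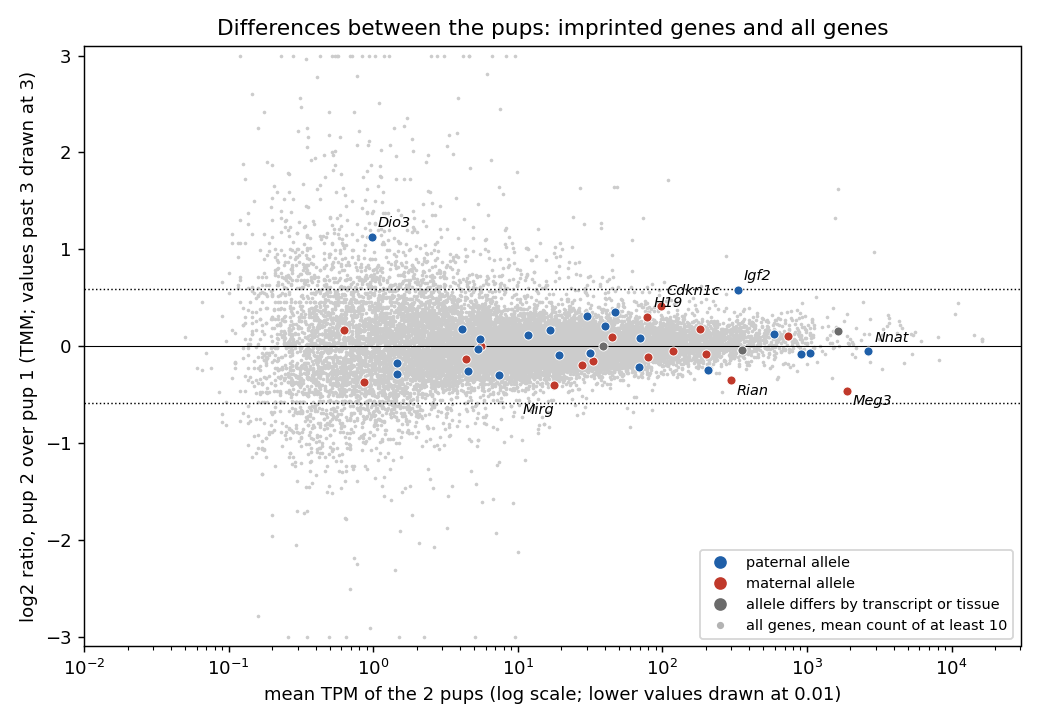
Log2 ratio of pup 2 over pup 1 after TMM scaling against mean TPM on a log axis; grey points are the 18105 genes whose mean count reached 10, coloured points the imprinted genes by literature allele, and dotted lines mark 1.5-fold. Igf2 lies just under the upper line at 0.58, Meg3 at -0.46, and Dio3, on few counts, at 1.13.

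Igf2, H19 and Cdkn1c were among the 18 of 44 imprinted genes that were higher in pup 2. Sgce and Mcts2, with log2 ratios of 0.35 and 0.32, were others. The 11 meningeal and fibroblast markers were higher in pup 2 as well, with log2 ratios from 0.19 to 1.32 and a median of 0.41. The summed level of these markers was 3081 TPM in pup 2 and 1661 TPM in pup 1, and none of the 11 was at 0. Ptgds, Crabp2 and Foxc1 passed 1.5-fold at a mean count of at least 100. Without Ptgds, left out after the data were seen, the sums were 891 TPM in pup 2 and 739 TPM in pup 1, a ratio of 1.21 against 1.85 with it, while the median log2 ratio stayed at 0.41. Meg3, Rian and Mirg were lower in pup 2, as were markers of several other types: 3 of 3 for blood (median -0.33), 4 of 5 for pericytes and smooth muscle (-0.30), 5 of 6 for cartilage and bone (-0.21), 4 of 5 for endothelium (-0.14) and 5 of 6 for neurons (-0.14). The imprinted genes named here lie among the more extreme ratios of the set, so the side they share with a marker list is not a separate result. The part of any of these tissues in the imprinted genes was not tested. Sensory ganglion and myelin markers were all higher in pup 2 as well, with medians of 1.90 and 1.19. So were 5 of 6 skeletal muscle markers (median 0.11) and 3 of 4 astrocyte markers (0.03).

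**Figure D4:**
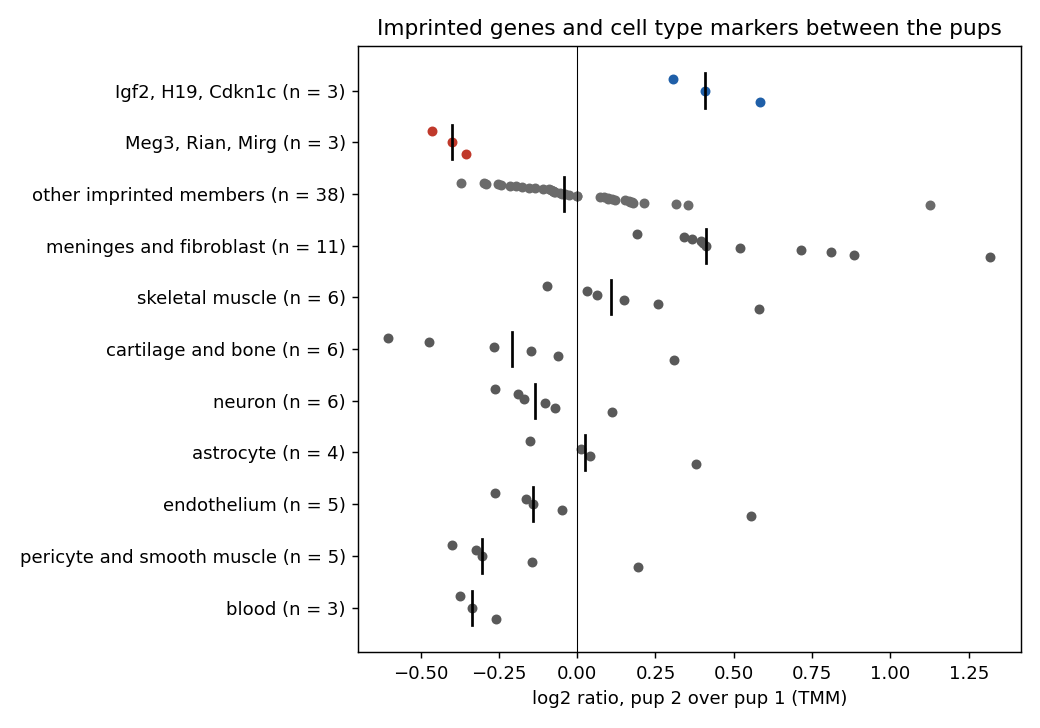
Log2 ratio of pup 2 over pup 1 for single genes (points) with each group's median (bar), for imprinted genes above and cell type marker lists below. Sensory ganglion, myelin and choroid plexus markers are not drawn. Those of sensory ganglion and myelin were all higher in pup 2, with medians of 1.90 and 1.19. Igf2, H19 and Cdkn1c have ratios above 0, and Meg3, Rian and Mirg below 0. These genes lie among the more extreme ratios of the imprinted genes, so their side of 0 is not a separate result. A link to any cell type was not tested.

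Promoter sequence was compared over 59 RefSeq windows of 38 imprinted genes. Their median was 17 CpGs, against 7 over 32851 windows of all genes. TGCCGC, searched on both strands, was in 14 of the 59, or 23.7%, against 11.6% of all windows. GCCATNTT, a motif of the factor YY1, was in 2, those of Mkrn3 and Ube3a, or 3.39%, against 6.05%. Snrpn and Snurf share 1 identical window that holds TGCCGC, and 2 windows of Mest that hold TGCCGC lie 3 bases apart. With overlapping windows on a strand merged, a step added after the data were seen, TGCCGC was in 12 of 54 stretches, or 22.2%. The shares are not matched for CpG content. These matches are letters in a window and say nothing of binding.

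Factors that read or keep imprints were expressed. Of 10 listed, 7 reached a TPM of 1 in both pups, against 35.5% of all gene rows. Trim28, the corepressor that ZFP57 recruits, had 147 TPM in pup 2 and 162 TPM in pup 1, and Zfp57 itself had 86.3 and 109 TPM. Zfp42 and Dppa3, genes of the early embryo and germ line, were at 0 counts in both pups. Among 37 further imprinted genes, 35 had a row, and Zfp264 and Zim3 had none. Of the 35, 27 were detected, against the same 35.5% of all gene rows. Nap1l5, a nucleosome assembly protein gene, led at 748 TPM in pup 2 and 739 TPM in pup 1, followed by Nap1l4 at 159.5 and 183 TPM, and Slc22a2 was lowest at 0.19 and 0.17 TPM. At a mean count of at least 100, 0 of 26 differed 1.5-fold between the pups, against 2.01% of all genes. That is near the background, so nothing is read from it.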

How the data were processed

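The mirVana kit was used for extraction per the labels, with fragments above 200 bases retained and 10 ng of RNA per library. The authors' expected counts are read numbers estimated per gene or transcript, fractional where reads are shared, in RSEM's columns per the file headers. The deposited TPM is scaled over all rows, and the deposited percent column gives each transcript's share of gene TPM. The deposited interval bounds of TPM surround the posterior mean, so a TPM can lie outside them. The authors' estimation split shared reads between genes, and 15 imprinted genes had counts more than 0.005 from a whole number. Of the imprinted genes, 30 overlap another annotated gene that has a row, and 22 do so on the opposite strand. Overlaps with annotated genes that have no row are not counted. The annotation was mm10 GENCODE M4 per the deposited notes; the aligner is not given in the sources used here, nor is the version of RSEM or the use of strand in counting.

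Symbols and coordinates came from GENCODE M21 (GRCm38, the same build), and 42462 of 43346 gene rows had a symbol. The 884 unnamed rows held 0.176% of counts in each pup. Rows of 26248 tRNAs and 96 spike-ins were left out. Of 268 transcripts of the imprinted genes, 263 were placed by the later annotation. Promoter windows are RefSeq's on GRCm38.p6.

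Expected counts were rounded. Log2 ratios of CPM used TMM factors from edgeR 4.0.16 (R 4.3.3), a prior count of 2 and a mean count of at least 10, and counts of genes past a fold used at least 100. Python 3.11.15, pandas 2.3.3 and matplotlib 3.10.9 did the rest. The steps were tested on simulated data. With 1 group of 2 pups no test was run. Alternatives were DESeq2 1.42.0 size factors, library totals, spike-in totals, other priors, filters and estimates, and leaving out each pup. Every imprinted gene listed is accounted for; of the other lists the highest, the lowest and those past 1.5-fold at a mean count of at least 100 were to be named, but marker lists are given mainly by their sums. The imprinted genes and the lists were chosen with earlier results of these data known.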

Additional observations from a re-analysis of the deposited data

How the results depend on the processing

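No paired analysis was possible because the series is 1 group of 2 pups. Member levels rest on 2 libraries, and each pup's value is printed above. Spike-in totals moved the median log2 ratio over the imprinted genes to -0.34, a shift of -0.29 for every gene, and put 4 of them past 1.5-fold. With no filter on low counts 2 passed 1.5-fold and 1, Dio3, passed 2-fold. No share over all genes is given for these settings, so nothing is read from these counts of genes. DESeq2 size factors, library totals, a prior count of 0.5, posterior mean counts and a count minimum of 100 left those counts at 0 and all log2 ratios within 0.251, the SD over genes. Without Meg3, Rian and Mirg, chosen after the data were seen, the median was -0.02. Detection gave 44 genes at a TPM of 0.5 and 39 at 2, and 42 with either pup left out. Paternal over maternal levels averaged 1.60; the ratio was 1.18 by expected counts not divided by length, 1.76 without Nnat and Meg3, 2.60 without genes of restricted imprinting, 3.89 without non-coding genes, 1.44 without Snurf (added after the data were seen), and 1.49 to 1.70 with a pup left out. Posterior mean TPM moved levels of detected genes by -5% for Peg10 to 18.4% for Plagl1. Rescaling TPM without mitochondrial and signal recognition particle RNA multiplied levels by 1.12 in pup 2 and 1.11 in pup 1. Under counts, the leading start shares of Gnas, Grb10, Igf2, Inpp5f, Meg3 and Mest all moved by more than 1 SD: Igf2 to 29.3% against 61.0% of TPM, Grb10 to 85.0% against 64.2%, and Mest to 81.2% against 55.5%. Low counts limit Phlda2, Dio3, Calcr and Zim1.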

Other observations

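Isoform use by gene was mostly alike between the pups. Of 32 imprinted genes with several annotated transcripts, 27 had the same leading transcript in both pups, and Calcr, Copg2, Mirg, Peg10 and Rian did not. Over 94 transcripts of such genes that held at least 5% of their gene in either pup, the median difference was 2.85 percentage points, and 12 differed by more than 10 points. Snrpn was read almost wholly from the start beside Snurf, with 96.4% of its TPM in pup 2 and 96.4% in pup 1. Igf2 TPM was led by a 650-base transcript from its first start, with 61.7% in pup 2 and 60.3% in pup 1, although that start held only 29.0% and 29.6% of Igf2 counts. In Meg3 a 14548-base transcript held 5.28% and 5.70% of TPM on 31612 and 31483 counts, beside 52.6% and 53.3% of TPM on 30507 and 28482 counts for the leading 1498-base transcript. H13 (99.97% in pup 2 and 99.6% in pup 1), Plagl1 (98.6% and 98.4%) and Blcap (98.7% and 98.3%) each drew nearly all TPM from 1 start group.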
